A study of Mus musculus with 27 samples.

Results

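Among the 50858 H3K27ac peaks of fetal blood progenitors, 6320 (12.4%) lay on chromatin that carried H3K4me1 before and after birth but had an H3K27ac peak only before birth. They were found by the rule that a fetal progenitor H3K27ac peak overlapped, by 1 bp or more, an H3K4me1 peak of both fetal and adult progenitors and no adult progenitor H3K27ac peak. These members were therefore chosen by measured values, and their lack of an adult acetylation peak is the rule and not a result. Of all fetal H3K27ac peaks, 19858 (39.0%) had no adult H3K27ac peak, and the members made up 31.8% of those. They also made up 18.3% of the 34607 fetal H3K27ac peaks with H3K4me1 at both ages. The other 28287 of these kept an H3K27ac peak in the adult and are called the kept sites. A smaller set of 3370 sites had fetal H3K27ac and fetal H3K4me1 and neither mark's peak in adult progenitors, and is called the decommissioned sites.

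Cells were sorted from B6-background mice as hematopoietic stem cells (HSC) or as the progenitors that follow them (HPC), in the fetus at E16.5 or in the adult at 8 weeks of age. No other genotype or treatment was given in the labels. Histone marks were mapped by ChIPmentation, in which antibody-bound chromatin is tagged by the Tn5 transposase. H3K4me1 was mapped in 3 fetal and 4 adult HSC libraries and in 3 fetal and 3 adult HPC libraries, and H3K27ac in 3 fetal and 3 adult HPC libraries. A further HPC set of 2 fetal and 3 adult libraries has sample titles that name H3K27me3 and a mark field that names H3K27ac. It is referred to as the second K27 set. One peak list was given per group, pooled over its libraries, so no value here has a replicate spread. Intervals are 95% Wilson or Newcombe intervals over sites and cover counting error only, and the read depth is unknown. The lists held 50858 fetal and 63108 adult H3K27ac peaks, 177310 fetal and 126502 adult HPC H3K4me1 peaks, and 231188 fetal and 143571 adult HSC H3K4me1 peaks.

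H3K4me1 is laid down at enhancers and at the flanks of promoters, whether or not they are active. H3K27ac is added where an enhancer or promoter is in use, so a site with H3K4me1 and without H3K27ac is often described as primed. Blood stem and progenitor cells change between fetus and adult from fast expansion to a slower, more quiescent state. The RNA-binding protein Lin28b, which blocks maturation of let-7 microRNAs, and the let-7 targets Hmga2 and Igf2bp1 to Igf2bp3 are known parts of the fetal state.

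Members rarely lay on promoters. Of 17492 protein-coding genes with a RefSeq promoter window, 27 (0.154%) had a window that a member overlapped, against 6712 with a window overlapped by a kept site. Any fetal H3K27ac peak overlapped a window of 7620 genes, and 0.354% of these genes had a member there. The 3 strongest members of this kind lay at Lin28b, Igf2bp2 and Igf2bp3. The first 2 are shown because these sites carry the pattern of H3K4me1 described below. Each runs 5′ to 3′ on the gene's strand over the 250 bases before a RefSeq start, from RefSeq's GRCm38.p6 tables, and capitals mark matched motif letters.
Lin28b, minus strand, chr10:45470202-45470451: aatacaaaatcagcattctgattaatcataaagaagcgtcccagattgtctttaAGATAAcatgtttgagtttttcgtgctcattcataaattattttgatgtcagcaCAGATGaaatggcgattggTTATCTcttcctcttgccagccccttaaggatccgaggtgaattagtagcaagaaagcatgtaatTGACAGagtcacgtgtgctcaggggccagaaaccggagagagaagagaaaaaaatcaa
Igf2bp2, minus strand, chr16:22163300-22163549: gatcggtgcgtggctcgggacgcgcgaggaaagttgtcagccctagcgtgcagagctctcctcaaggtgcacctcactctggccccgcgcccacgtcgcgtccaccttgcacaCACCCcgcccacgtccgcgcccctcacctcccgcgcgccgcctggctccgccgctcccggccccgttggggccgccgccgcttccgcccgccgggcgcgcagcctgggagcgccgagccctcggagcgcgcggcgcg
The Lin28b start lies inside the annotated gene body, 16113 bp from its outer end, while the Igf2bp2 start is the outermost one and the Igf2bp3 start lies 515 bp inside. The Lin28b window was low in GC (39.2%), whereas those of Igf2bp2 and Igf2bp3 held 77.2% and 60.4% GC. The ratio of observed to expected CpG was 0.631 at Lin28b, 1.11 at Igf2bp2 and 1.00 at Igf2bp3.

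Motif letters were searched on both strands in these 250-base windows: GATA as AGATAA, RUNX as TGTGGT, ETS as CAGGAA, C/EBP as TTGCNNAA or TTGNNCAA, AP-1 as TGANTCA, E-box as CAGNTG, MEIS as TGACAG and KLF as CACCC. Matches may overlap, and a match is a description of the letters only. Overlap with a member was called from 250 bases before to 50 after a start, while letters and GC were read before the start only. At some genes the member therefore lay outside the bases searched. The Lin28b window held AGATAA on each strand, 1 CAGNTG and 1 TGACAG, and the windows of Igf2bp2 and Igf2bp3 held 1 CACCC each. With 1 window per gene, AGATAA was present in 6 of the 27 member windows (22.2%), in 5.15% of kept windows and in 9.03% of the windows of all 17492 genes. CACCC was present in 48.1%, 54.5% and 53.2% of them, and CAGNTG in 40.7%, 34.3% and 41.6%. In the same order, CAGGAA was present in 29.6%, 22.3% and 24.4%, TGTGGT in 11.1%, 10.5% and 12.6%, and TGACAG in 14.8%, 13.7% and 15.5%. TTGCNNAA was present in 11.1%, 7.45% and 9.11%, TTGNNCAA in 7.41%, 4.45% and 5.73%, and TGANTCA in 0%, 3.81% and 6.21%. The median GC content was 50.4% over member windows, 60% over kept windows and 55.2% over all genes.

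Members were mostly weak and narrow acetylation peaks. The authors' fold over background had a median of 3.01 over members (range 1.66 to 14.3) and of 4.10 over kept sites, and the median width was 382 bp against 954 bp. A wider fetal peak has more bases with which to meet an adult peak, so width is not independent of the rule. By −log10 p in the fetal list, 20 members ranked among the strongest 10000 peaks, 770 among the strongest 20000, and 3944 (62.4%) past rank 30000, where 22.4% of kept sites lay. A fold of at least 5 was reached by 51 members. Because strength and width differ this much, the shares with HSC H3K4me1, near a gene start and with a second-set peak were repeated within bands of rank and among sites of 300 to 600 bp, and the H3K4me1 folds among sites of that width. The other comparisons with kept sites below are not matched for strength or width.

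The absence of an adult acetylation peak was often local. The distance from a member to the nearest adult H3K27ac peak had a median of 1292 bp, with 2895 members within 1 kb of one and 1508 more than 10 kb from any. Just inside the rule lay members that adjoined an adult peak at a distance of 1 bp, at Adgb (fold 3.43), Dyrk1a (3.43) and Gse1 (2.93). Just outside it lay kept sites that shared 2 bp with an adult peak, at Camk1g (3.68), Lyst (3.60) and Dock9 (3.51). In all, 49 members lay within 10 bp of an adult peak and 49 kept sites overlapped one by 10 bp or less. At the other end, 215 members lay more than 100 kb from adult acetylation, among them the strongest member of all, in Lin28b.

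**Figure D1:**
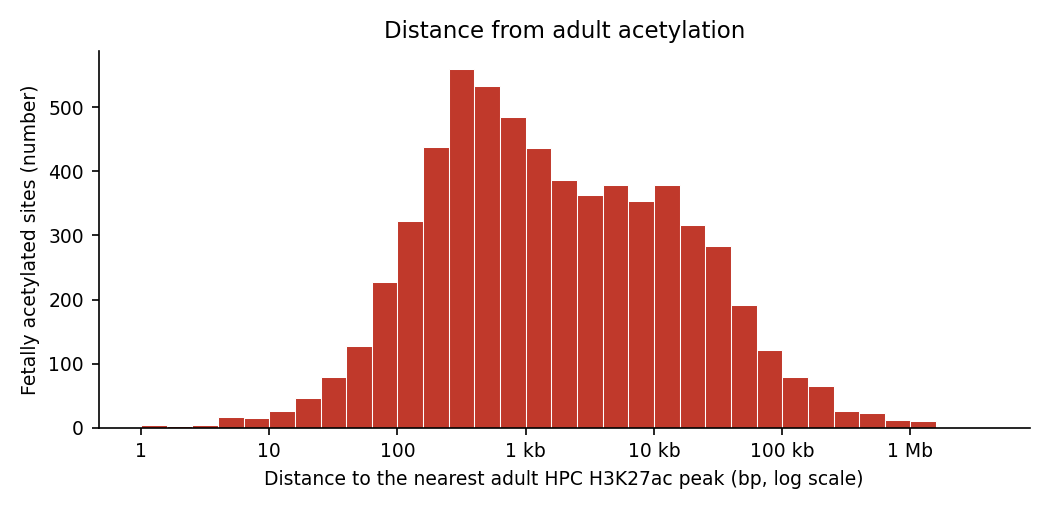
Number of members (y axis) by distance from the nearest adult HPC H3K27ac peak (x axis, bp on a log scale, 5 bins per 10-fold). Most members lie between 100 bp and 100 kb, with a median of 1292 bp.

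HSC lists were not used by the rule, and they showed that members carried H3K4me1 in stem cells too, less often in adult ones than kept sites did. An adult HSC H3K4me1 peak was present at 5320 of 6320 members (84.2%, 83.3 to 85.1), at 97.6% of kept sites, at 22.0% of decommissioned sites and at 69.1% of all fetal H3K27ac peaks. The difference from kept sites was −13.4 percentage points (−14.3 to −12.5), and that from decommissioned sites was 62.2 points (60.5 to 63.8). Members have an adult HPC H3K4me1 peak by the rule, and decommissioned sites lack one by definition. The difference between these 2 sets in adult HSC is therefore not independent of how they were defined. Members and kept sites are parted by an adult HPC H3K27ac peak, so their difference in adult HSC may also depend on the definition. A fetal HSC H3K4me1 peak was present at 97.1% of members, 96.8% of kept sites and 75.1% of all fetal H3K27ac peaks. That difference from kept sites, 0.246 points, had an interval that spanned zero (−0.240 to 0.686), and it was 1.94, 1.16 and 1.76 points in the bands of rank 10000 to 20000, 20000 to 30000 and over 30000, where the intervals did not. In adult HSC the difference was negative in every band of rank, from −12.4 to −8.02 points, and was −11.6 points among sites of 300 to 600 bp.

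Counted by HSC state, 83.2% of members had H3K4me1 in HSC of both ages, 13.9% only in fetal HSC, 0.965% only in adult HSC and 1.95% in neither. The fetal-only share was 1.85% among kept sites. The share of members with adult HSC H3K4me1 was 87.3% (84.3 to 89.8) for those within 100 bp of an adult H3K27ac peak and 83.3% (77.7 to 87.7) for those more than 100 kb away. Members next to adult acetylation and members far from it thus had overlapping intervals in this share.

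**Figure D2:**
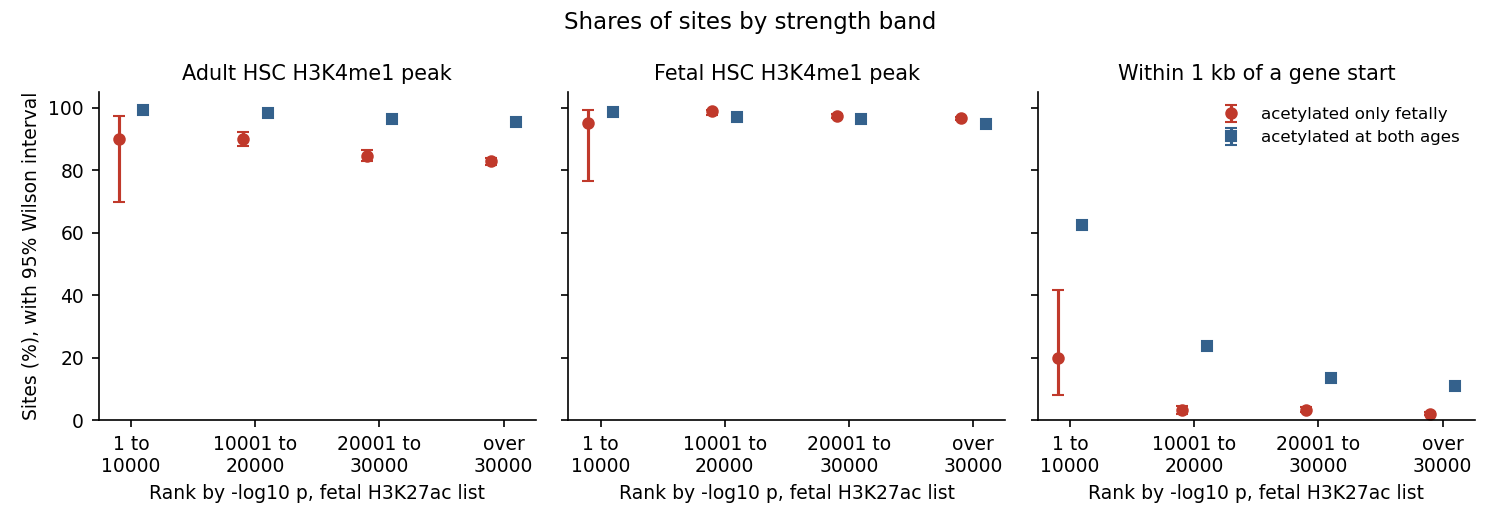
Percent of sites (y axis) with an adult HSC H3K4me1 peak, with a fetal HSC H3K4me1 peak, or within 1 kb of a gene start, by rank of the fetal H3K27ac peak (x axis). For genes without a RefSeq start, either gene end counted as a start. Red circles are members, blue squares are kept sites, and bars are 95% Wilson intervals. In the lowest band the members stand at 82.8%, 96.6% and 2.05% and the kept sites at 95.3%, 94.9% and 11%.

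The strength of H3K4me1 at members, set beside kept sites, differed with the age of the list. In the fetal HPC list the H3K4me1 peak at a member had a median fold of 5.50, and that at a kept site 5.41. In the adult HPC list the medians were 4.42 and 5.73. The HSC lists, which the rule did not use, gave 5.12 for members and 4.87 for kept sites in the fetus and 4.13 and 4.90 in the adult. Members were thus level with or above kept sites in the fetal lists and below them in the adult lists, as a description of 4 pooled lists with no test. The rule used both HPC lists, and it parts members from kept sites by adult HPC H3K27ac. The contrast in H3K4me1 strength is therefore not independent of how the sets were defined. Among sites of 300 to 600 bp the medians were 5.12 and 4.73 in fetal HSC and 4.13 and 5.04 in adult HSC. Decommissioned sites had a lower median in the fetal HPC list, 3.11.

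**Figure D3:**
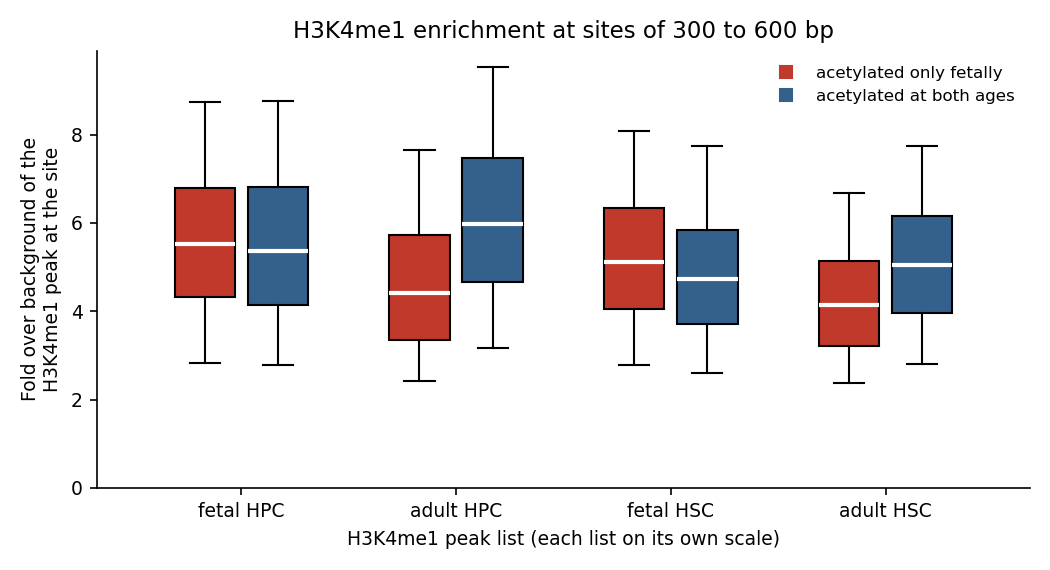
Fold over background of the H3K4me1 peak (y axis) at members (red) and kept sites (blue) of 300 to 600 bp in each of the 4 H3K4me1 lists (x axis), with medians in white, boxes from the 25th to the 75th percentile and whiskers from the 5th to the 95th. Members have the higher median in both fetal lists and the lower one in both adult lists.

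Position in the genome also separated the sets. A gene start lay within 1 kb of 163 members (2.58%, 2.22 to 3.00), of 31.9% of kept sites, of 1.39% of decommissioned sites and of 21.6% of all fetal H3K27ac peaks. Where RefSeq gave no start, either end of the gene counted, so these shares can include sites near a 3′ end. The difference from kept sites was −29.3 points (−30.0 to −28.7), and within bands of rank it ran from −42.4 to −8.99 points. Gene bodies held 70.7% of members and 72.2% of kept sites. No gene lay within 100 kb of 7.86% of members and of 4.13% of kept sites.

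Strong members were exceptions in several respects. The strongest, in the body of Lin28b at chr10:45467081-45470948, had a fold of 14.3 and rank 1618, and lay 106706 bp from the nearest adult H3K27ac peak. The second lay in Gnas, the imprinted gene of the stimulatory G protein alpha subunit, at chr2:174293825-174296212 with a fold of 9.79. The third covered the start of Igf2bp2 at chr16:22160527-22164143 with a fold of 9.71. A site at chr16:77172288-77174949, 55505 bp from the deubiquitinase gene Usp25, had a fold of 8.70, and the Igf2bp3 site at chr6:49213840-49217946 had 8.37. A narrow site of 183 bp at chr15:51112832-51113014 had a fold of 7.70 and no gene within 100 kb. The nearest was Trps1, a GATA-type zinc finger gene, at 222201 bp. The Igf2bp1 site, chr11:96004148-96006373, with a fold of 7.11, is named after its values were seen.

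At Lin28b and the 3 Igf2bp genes, H3K4me1 lay beside the acetylation summit in the fetus and covered it in the adult. The share of the Igf2bp2 member under HPC H3K4me1 was 19% in the fetus and 79.0% in the adult, and in HSC it was 24.0% and 61.6%. For Igf2bp3 these shares were 33.2% and 71.7% in HPC and 37.4% and 68.3% in HSC, and for Igf2bp1 they were 17.4% and 73.3% in HPC and 7.46% and 88.7% in HSC. The Lin28b member changed less in its covered share, from 46.4% to 52.1% in HPC and from 49.5% to 53.2% in HSC. At all 4 sites the H3K27ac summit lay outside every fetal H3K4me1 peak and inside an adult one, in HPC and in HSC alike. None of the other 16 of the 20 strongest members showed this in both cell types.

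This shift of H3K4me1 onto the summit was rare among members. It was present in both HPC and HSC at 13 of 6320 members (0.206%), and 6 of these 13 lay at Lin28b (2), Igf2bp3 (2), Igf2bp2 (1) and Igf2bp1 (1). The pattern was looked for after the strongest sites were seen, and the sites where it was first seen are among these 6. Kept sites showed it at 2.09%. Sites over 1000 bp wide and within 1 kb of a gene start were 14 members and 6830 kept sites. Fetal HPC H3K4me1 held the summit at 71.4% of these members and 22.0% of these kept sites. Adult but not fetal H3K4me1 held it at 4 and 562 of them in HPC, and at 5 and 605 in HSC. The reverse, a summit inside fetal and outside adult H3K4me1 peaks in both cell types, was present at 345 members (5.46%) and at 0.799% of kept sites. Over members more than 1 kb from a gene start, the summit lay in a fetal HSC H3K4me1 peak in 94.8% and in an adult one in 75.1%. For kept sites of that kind these shares were 90.4% and 90.6%.

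Those same strong sites overlapped peaks of the adult second K27 set. Of all members, 10 (0.158%) overlapped an adult second-set peak, against 0.492% of all fetal H3K27ac peaks, and 3 overlapped a fetal one, against 0.482%. The 5 strongest of the 10 were the sites at Lin28b, Gnas, Igf2bp2, Igf2bp3 and Igf2bp1, all within the 10 strongest members, and 0 of the 20 strongest overlapped a fetal second-set peak. Among peaks of rank 1 to 10000 the share was 25% for members (5 of 20) and 4 of 9365 for kept sites, a difference of 25 points (11.1 to 46.8). Over all ranks the difference was 0.137 points (0.0605 to 0.270). Decommissioned sites overlapped an adult second-set peak more often than members, at 0.445%, a difference of −0.287 points (−0.584 to −0.0670). The second-set peaks themselves were weak, with −log10 q of 1.76 at Lin28b, 2.16 at Gnas, 2.44 at Igf2bp2, 0.777 at Igf2bp3 and 1.10 at Igf2bp1. When peaks of that set were limited to a −log10 q of at least 5, which 576 adult peaks reached, 0 members and 0 kept sites overlapped one (difference 0, −0.014 to 0.061). These 5 strong sites leave the set when H3K4me1 of each age must cover at least 50% of the peak, since fetal HPC H3K4me1 covered from 5.90% (Gnas) to 46.4% (Lin28b) of them, and the difference over all ranks is then 0.044 points (0.0013 to 0.148). With short windows centred on the summit in place of whole peaks, Lin28b and Igf2bp1 had 0 members and Igf2bp3 had 2. The remaining 5 members with an adult second-set peak lay nearest to Asxl3, Mctp2, Magi1, Zdbf2 and Sox6, and the one at Zdbf2 also overlapped a fetal second-set peak.

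**Figure D4:**
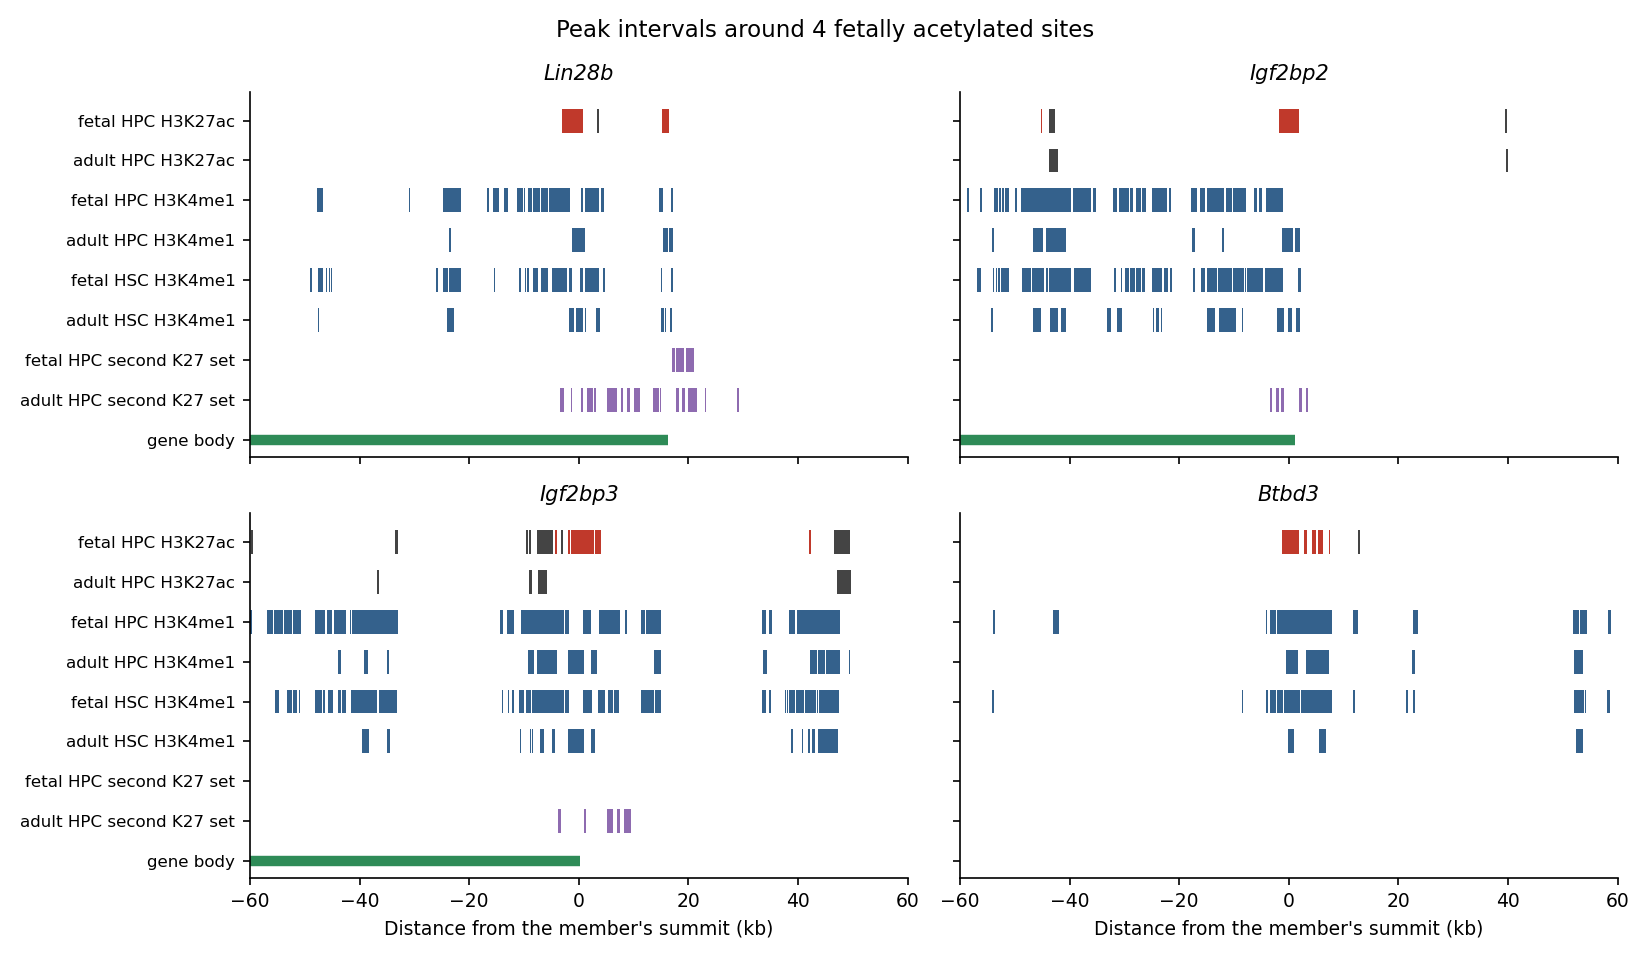
Peak intervals of the 8 lists within 60 kb of the summit of the strongest member at Lin28b, Igf2bp2, Igf2bp3 and Btbd3 (x axis, kb from the summit). Red marks members, black other H3K27ac peaks, blue H3K4me1, purple the second K27 set and green the gene body, which lies beyond the window for Btbd3. Adult second-set peaks number 19, 5, 5 and 0 in the 4 windows, and fetal ones 4, 0, 0 and 0.

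The fetal stem cell programme list held 19 members at 7 of its 14 genes. Of all 21887 coding genes, 14.0% were the nearest gene within 100 kb of a member. Members made up 12.3% of fetal H3K27ac peaks assigned to a gene, against 27.1% of the 70 peaks of this list. Igf2bp3, Dlk1 and Hmga2 had 4 members each, Igf2bp2 had 3, Lin28b 2, and Igf2bp1 and Arid3a 1 each. Lin28b had 6 fetal H3K27ac peaks, of which 2 were members and 0 were kept, and no adult H3K27ac peak was assigned to it. Its second member, chr10:45485232-45486510 with a fold of 3.93, reached across the 5′ end of the gene body.

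Igf2bp3, an RNA-binding protein of the fetal programme, had members with folds of 8.37, 4.69, 3.18 and 2.10, at distances of 4455, 8682, 1458 and 3788 bp from adult acetylation. The 3 members at Igf2bp2 had folds of 9.71, 3.18 and 2.43, and only the strongest had an adult HSC H3K4me1 peak. Hmga2, a chromatin protein that promotes fetal HSC self-renewal, had 4 members among 21 fetal peaks, with folds of 3.85, 3.85, 3.10 and 2.09. Of these, 3 lay within 1 kb of an adult H3K27ac peak, and 11 of the gene's peaks were kept. Dlk1, an imprinted Notch-pathway ligand, had members with folds of 7.11, 3.77, 3.43 and 3.43 between 13876 and 50231 bp from the gene, of 6 fetal peaks in all. Each of the 4 had H3K4me1 in adult HSC, with folds of 6.54 to 7.77.

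Genes of HSC identity and quiescence held 104 members at 16 of 29 genes, 19.8% of the 525 fetal peaks of the list. Mecom, a transcription factor needed for HSC maintenance, had 21 members of 69 fetal peaks, against 34 adult peaks. Their highest fold was 3.88, all 21 had H3K4me1 in adult HSC, 5 lay within 1 kb of an adult peak and 6 more than 10 kb away. Ikzf2, which encodes the Ikaros-family protein Helios, had 18 members of 46 fetal peaks, of which 9 formed a run of 41.4 kb at chr1:69492966-69534328 with folds of 2.62 to 5.44. Angpt1, a ligand of the receptor Tie2, had 15 of 37, and the ETS-family gene Etv6 had 12 of 81, with 68 kept. Mllt3, a super elongation complex gene named after its values were seen, had 8 of 25, all 8 with adult HSC H3K4me1.

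Lymphoid priming genes held 45 members at 10 of 19 genes (21.8% of 206 fetal peaks). Bcl11a, a repressor of fetal globin and a lymphoid factor, had 11 of 43, of which 10 lay within 1 kb of an adult peak. Tcf4 had 9 of 33, Ikzf1 8 of 22 and the nuclear receptor gene Rora 8 of 40. Developmental signalling genes held 41 at 12 of 20 genes (19.5% of 210), with 12 of 49 peaks at Trio, 7 of 27 at the IGF receptor Igf1r, 4 of 29 at Tgfbr2 and 4 of 21 at Notch2. Erythroid and megakaryocyte genes held 20 at 6 of 26 (17.7% of 113). Of these, 11 are the members at Bcl11a already counted among lymphoid genes, and 5 lay at Myb, of its 16 peaks. Mast cell, basophil and eosinophil genes held 4 at 3 of 11 (18.2% of 22). Myeloid genes held 8 at 7 of 22 (14.8% of 54) and cell cycle genes 11 at 4 of 21 (12% of 92), of which Cdk6 had 7 of its 33.

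Few members lay at interferon, inflammatory and immediate early genes. Type I interferon and antigen presentation genes held 1 member, at Ifitm3, of 38 fetal peaks (2.63%), with 34 kept. Inflammatory signalling genes held 3, all at Nfkb1, of 62 (4.84%), and immediate early and AP-1 genes held 3 of 61 (4.92%), at Ier3, Fosl2 and Dusp1. Housekeeping genes held 4 of 47 (8.51%). Imprinted growth regulators held 7 of 28 (25%), at Dlk1 and Gnas, and the 4 at Dlk1 are also counted in the fetal stem cell programme. Counts by list describe 1 pooled list each and carry no test. Among the strongest 20000 fetal peaks, which hold 770 members in all, 14 of the 104 at HSC identity genes and 4 of the 45 at lymphoid genes were left, against 10 of the 19 at the fetal stem cell programme. With no adult H3K27ac peak within 1 kb these counts were 56, 21 and 14.

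For markers of other cells, members are again given beside all fetal peaks of the list, of which they made up 12.3% over all genes. Hepatocyte genes had 7 fetal H3K27ac peaks and T and NK cell genes 13, with 0 members in each list. Endothelial genes had 7 members of 38 peaks (18.4%), with 4 at Emcn, 2 at Kdr, 1 at Cdh5 and 0 at Pecam1, Tek, Stab2 and Lyve1. B cell genes had 1 of 8 (12.5%), at Ebf1, macrophage genes 1 of 13 (7.69%), at Adgre1, and stromal genes 2 of 8 (25%), both with Pdgfra as the nearest gene. The members assigned to Kdr and Pdgfra all lay outside the gene bodies. With the gene required within 50 kb, 0 stromal members were left. The part of other cell types in the members was not tested.

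Members fell at 3069 genes, of which 1890 had 1 member and 26 had 10 or more. Long genes have more room for sites, so counts are given beside all fetal peaks of the gene. Maml2, a Notch co-activator with a body of 413 kb, had 21 of 56. Tab2, an adaptor of the kinase TAK1 with a body of 50.6 kb, had 19 of 28 (67.9%), against 8 adult H3K27ac peaks. Of the 19 members, 10 lay in the body, and 11 were left with the gene required within 50 kb. Its body held more adult than fetal H3K4me1 peaks, 20 against 11 in HPC and 28 against 13 in HSC, as numbers of peaks and not covered length. Btbd3, a BTB-domain gene, had 12 of 15 (80.0%), 0 kept and 1 adult peak, and 9 of its members lay more than 10 kb from adult acetylation. Its strongest, 3170 bp wide at chr2:138192003-138195172, had a fold of 5.94, and 8 of the 12 had H3K4me1 in adult HSC.

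Further genes with many members were Arid1b, a BAF chromatin remodelling subunit (19 of 81), Elmo1, a Rac activator (18 of 58), Sgms1, a sphingomyelin synthase (16 of 76), and Foxp1, a forkhead factor (16 of 89). Gnaq, a G protein alpha subunit, had 15 of 30 and the splicing regulator Mbnl1 15 of 33. Ncoa2, a nuclear receptor co-activator, had 14 of 29, and Vav3 and Pde4d had 14 of 68 and 14 of 72. Maml3 had 13 of 44, Celf2 13 of 40 and Fchsd2 12 of 36. The 20 genes with the most members held 5.31% of assigned members, so most members were spread thinly. Among the strongest 20000 fetal peaks Mecom and Maml2 had 1 member each, Elmo1 and Foxp1 had 0, Tab2 had 5 and Ikzf2 had 7.

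**Figure D5:**
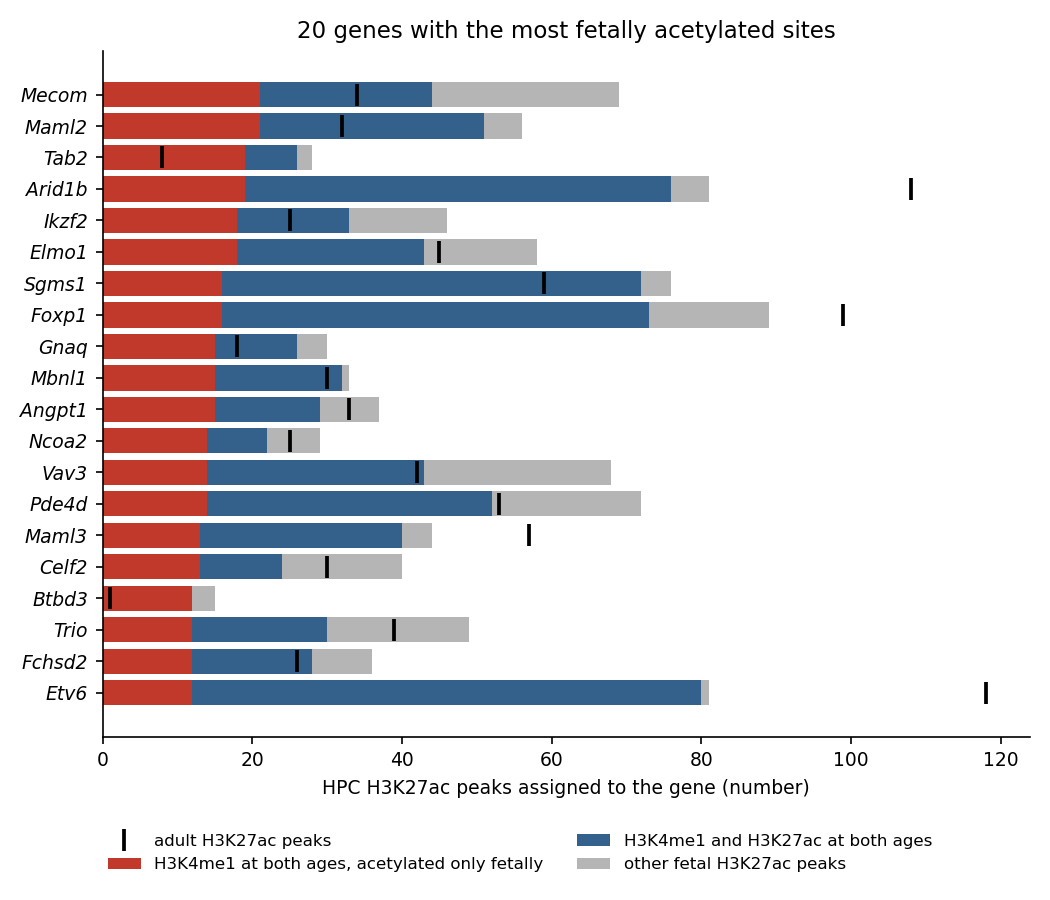
HPC H3K27ac peaks (x axis, number) assigned to each of the 20 genes with the most members (y axis). Red is members, blue kept sites, grey other fetal peaks, and the black tick is the number of adult peaks, which is below the members alone at Tab2 (8) and Btbd3 (1).

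Some members lay in runs along the genome. Linking members at most 12.5 kb apart gave 4770 chains, of which 300 had 3 or more members (1129 members), while 3749 members stood alone. The longest chain, named after its values were seen, held 15 members over 50.8 kb at chr12:12532317-12583107, 151352 bp from the nearest gene, Cyria. It had folds of 1.95 to 5.44, 24 fetal and 9 adult H3K27ac peaks in its span, and an adult HSC H3K4me1 peak at all 15 members. The chains nearest to Tab2 held 11 members in 32.5 kb, overlapping the gene, and 8 in 34.6 kb, 52185 bp from it. A chain of 7 at Maml2 and one of 7 at Btbd3 had 0 adult H3K27ac peaks in their span. Chromosome X held 36 members, 6.33% of its fetal H3K27ac peaks, below the 10.3% to 14.5% of the autosomes.

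Of 1005 RefSeq miRNA hairpins, 45 (4.48%) lay within 5 kb of a member and 236 (23.5%) within 5 kb of a kept site. Any fetal H3K27ac peak lay within 5 kb of 329 (32.7%). The let-7 miRNAs and the X-linked miR-322 and miR-503, named after their distances were seen, are shown because Lin28b acts on the first and because miR-322 and miR-503 lie near a member on the X chromosome. Sequences are RefSeq mature miRNAs with the seed, bases 2 to 8, in capitals, and let-7g and let-7i share the seed GAGGUAG.
let-7g-5p: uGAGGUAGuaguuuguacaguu
let-7i-5p: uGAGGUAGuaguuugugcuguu
miR-322-5p: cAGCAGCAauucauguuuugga
miR-503-5p: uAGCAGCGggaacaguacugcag
miR-100-5p: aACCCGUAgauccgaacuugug
Members lay near 2 of the 11 let-7 hairpins, at 2810 bp from let-7g (fold 3.68) and 3040 bp from let-7i (2.46), and a kept site overlapped the let-7i hairpin. The miR-322 and miR-503 hairpins lay 1965 and 1694 bp from a member with a fold of 3.93, and 1131 and 860 bp from an adult H3K27ac peak. A fetal H3K27ac peak that is not a member lay nearer, at 1521 bp from let-7g, 1512 bp from miR-322 and 1241 bp from miR-503. The miR-100 hairpin lay 4974 bp from a member with a fold of 3.18 at chr9:41525699-41526451, and 301983 bp from the nearest adult H3K27ac peak.

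The mirror rule in the adult found far more sites. Of 49255 adult H3K27ac peaks with H3K4me1 at both ages, 24436 (49.6%) had no fetal H3K27ac peak, in lists of unequal length. Of these, 90.9% had H3K4me1 in adult HSC and 85.0% in fetal HSC, and 10.3% had it in adult HSC only against 4.37% in fetal HSC only. A gene start, counted as above, lay within 1 kb of 7.46% of them.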

How the data were processed

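Fetal and adult mouse HSC and HPC were profiled for histone marks in 27 libraries, 24 in 8 groups and 3 inputs. Alignment used Novoalign and peak calling MACS2, and the build was mm10 (GRCm38), per the submitters' processing notes. Their versions, thresholds and filter were not given in the sources used here. For each group the authors deposited 1 pooled peak list, with a fold (ratio) over background and −log10 p and −log10 q values for each peak, used here only within a list. Depth is unknown, and lack of a peak is not lack of a mark.

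Overlap was 1 bp or more. Each site was assigned within 100 kb to its nearest gene body among 21887 coding genes in RefSeq's GRCm38.p6 table. Nearness to a start used RefSeq starts for 17492 genes and either gene end for 4395 genes without one. Some starts of a gene may thus be missed, and 3′ ends of the 4395 genes are counted as starts. Scripts used Python 3.11.15, numpy 2.4.6 and pandas 2.3.3, and interval counts were checked on simulated data. Motifs around member summits were planned and not run, as no genome sequence was used here.

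The members and the 19 gene lists (3 of 278 names unmatched) were chosen with earlier results of these data known. Genes named are the 20 with the most members, up to 4 per list, and the nearest genes of the 6 strongest members. Exceptions are stated. Alternatives covered overlap, distance, strength, list length, summit windows, chromosomes, width and rank bands.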

Additional observations from a re-analysis of the deposited data

How the results depend on the processing

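No paired analysis was possible because each list pooled the libraries of its group, and no library could be left out in turn for the same reason. The number of members was 3425 with no adult peak within 1 kb and 770 among the strongest 20000 peaks, and between 4693 and 7024 under the other definitions. Differences below are members minus kept sites in percentage points, and the cause of each shift was not tested. With H3K4me1 over at least 50% of the peak they were −10.4 (adult HSC), −0.372 (fetal HSC), −12.9 (near a start) and 0.044 (adult second K27 set), and the strongest members at Lin28b, Gnas, Igf2bp2, Igf2bp3 and Igf2bp1 dropped out, since fetal H3K4me1 covered too little of them. With no adult peak within 1 kb they were −27.2 (near a start) and 0.273 (adult second K27 set). Among the strongest 20000 they were −8.60, 0.963, −41.4 and 0.744, and −0.076 for the fetal second K27 set. A fetal −log10 q of at least 5 gave −31.0 near a start, and 2 kb in place of 1 kb gave −26.6. Windows centred on the summit gave −11.4, 2.44 and −18.1 for adult HSC, fetal HSC and near a start, and 0 members at Lin28b and Igf2bp1. Sites of 300 to 600 bp, chosen after seeing the data, gave −11.6, 1.91 and −10.6. For ranks 1 to 10000 they were −9.20, −3.45, −42.4 and 25 (adult second K27 set), the last from 20 members. Ranks 10000 to 20000 gave −8.02, 1.94, −20.5 and −0.131 (fetal second K27 set), ranks 20000 to 30000 gave −11.8, 1.16 and −10.2, and ranks over 30000 gave −12.4, 1.76, −8.99 and 0.051 (adult second K27 set). Limiting the second K27 set to a −log10 q of at least 5 gave 0 for the adult set. The adult HSC and near-start differences were negative under each of these settings, while the fetal HSC difference changed sign. Members at the fetal stem cell programme numbered 19, and 10 with 50% coverage or among the strongest 20000.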
